A study of Mus musculus with 35 samples.

Results

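CD8 T cells sorted from the liver as negative for the chemokine receptor CXCR6 (liver CXCR6neg) were compared with CD8 T cells sorted from the spleen as negative for the chemokine receptor CX3CR1 (spleen CX3CR1neg), both from mice on the normal diet (ND). The comparison used 9 libraries, 4 of liver and 5 of spleen, out of 35 samples in the series. They were chosen by their labels alone: liver replicates 2 to 5 and spleen replicates 1 to 5. Liver replicate 1 and spleen replicate 6 held the same count for each of 22865 genes under different labels, and both were left out. All mice of both groups were C57BL/6 and 13 months old, with no transgene or treatment other than diet in the labels. The other groups of the series, used here only beside the main comparison, were CXCR6neg and CXCR6pos liver cells and CX3CR1neg spleen cells of mice on the diet labelled CD-HFD, and CXCR6pos liver cells of mice on ND. The fractions were lysed as they were sorted, and the 3′ ends of their polyadenylated RNA were sequenced in bulk. Separate animals are not stated for the replicates, and the p-values therefore reflect only how these libraries vary, which may be technical.

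CD8 T cells circulate through the spleen in large numbers, and the liver holds both passing cells of the blood and cells that stay in its sinusoids. CXCR6 binds CXCL16, a chemokine displayed in the liver, and is a common marker of the cells that stay, while CX3CR1 marks effector cells that have seen antigen. Removing CXCR6-positive cells from the liver and CX3CR1-positive cells from the spleen therefore leaves a different remainder in each organ, and the 2 groups differ in organ and in gate at once. The effects of organ and gate cannot be told apart.

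The genes of the gates were read first. Cx3cr1 (GRCm38 chr9:119901616-120069879, minus strand) was at 46.7, 81.3, 129 and 159 CPM (counts scaled to a common library size by the trimmed mean of M-values, TMM, over the tested genes) in liver replicates 2, 3, 4 and 5, against 2.62, 10.2, 7.17, 7.67 and 31.3 CPM in spleen replicates 1 to 5. Every liver library lay above every spleen library, by 3.54 ± 0.35 on the log2 scale (± SE). The spleen gate selected on the product of this gene, so the difference is not a finding. Cxcr6 (chr9:123806475-123811760, plus strand) was at 40, 194, 450.0 and 227 CPM in liver and 175, 169, 183, 221 and 257 CPM in spleen. Liver replicate 4 held more than any spleen library and liver replicate 2 held the least of the 9, and the difference of 0.38 ± 0.37 did not pass (adjusted p = 0.658).

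The genes of CD8 T cells were detected in every library of both groups. Cd8a and Cd8b1, the chains of the CD8 coreceptor, averaged 1122 ± 262 and 2031 ± 373 CPM in liver (SD, n = 4) and 1012 ± 59.7 and 1968 ± 64.9 CPM in spleen (SD, n = 5). Cd3e, a signalling chain of the T cell receptor complex, averaged 1103 ± 25.4 CPM in liver and 895 ± 54.7 CPM in spleen (0.30 ± 0.11, adjusted p = 0.0726). Of 19 T cell identity genes tested, 1 (5.26%, against 4.73% of all tested genes) rose and none of the 19 fell. The gene that rose was the adaptor gene Lat (0.34 ± 0.11, adjusted p = 0.0435). The Lat call held only without liver replicate 3 among the 9 fits that each left out 1 library, with adjusted p between 0.0671 and 0.185 in the others. Total counts ran from 165811 to 419019 in liver and from 169106 to 688547 in spleen, with 10576 to 12823 genes detected per liver library and 10797 to 14156 per spleen library. At that depth 1 count was worth between 2.47 and 6.67 CPM in liver and between 1.53 and 6.27 CPM in spleen, so levels of a few CPM rest on single counts.

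The question was which genes separate CXCR6neg CD8 T cells of the liver from CX3CR1neg CD8 T cells of the spleen when no disease diet is given. Genes that cells switch on within minutes of a stimulus stood among the largest increases: the transcription factor genes Fos, Jun, Junb and Nr4a1, the phosphatase gene Dusp1 and the stress gene Hspa1a were all higher in liver by more than 4 on the log2 scale. Effector genes such as Gzma, Gzmb, Ifng, Tnf, Ccl3 and Ccl4 followed, by 3.14 to 4.09. Lower in liver were genes of B cells and dendritic cells such as Igkc, Jchain, H2-Eb1 and Cst3, the granzyme gene Gzmm and the inhibitory receptor gene Btla. Of 6174 genes tested by edgeR's quasi-likelihood test, 292 (4.73%) were higher and 132 (2.14%) lower in liver at a Benjamini-Hochberg adjusted p under 0.05, or 6.87% in all. Of these, 188 were more than 2-fold higher and 58 more than 2-fold lower, and the log2 fold change of the median gene was -0.0021. Genes low in most libraries of either group passed the count filter only with the help of libraries of other groups. The direction of such calls was partly set by the filter. Values with ± in brackets are log2 fold changes of liver over spleen with their SE. The libraries of the 2 groups did not overlap in 551 genes (8.92%), with liver above in 330 (5.34%) and below in 221 (3.58%).

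The counts of genes higher and lower in liver both depended on the identical library that carries a label of each organ. With it kept in the liver group the counts were 190 higher and 55 lower, and with it kept in both groups 173 and 36. Without liver replicate 5 the count lower in liver was 87. Summed markers of erythroid, plasmacytoid dendritic and NK cells were higher in every liver library than in any spleen library, and those of B cells and conventional dendritic cells lower, with values given further on. The part of other cells in the differences of T cell genes was not tested.

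**Figure D1:**
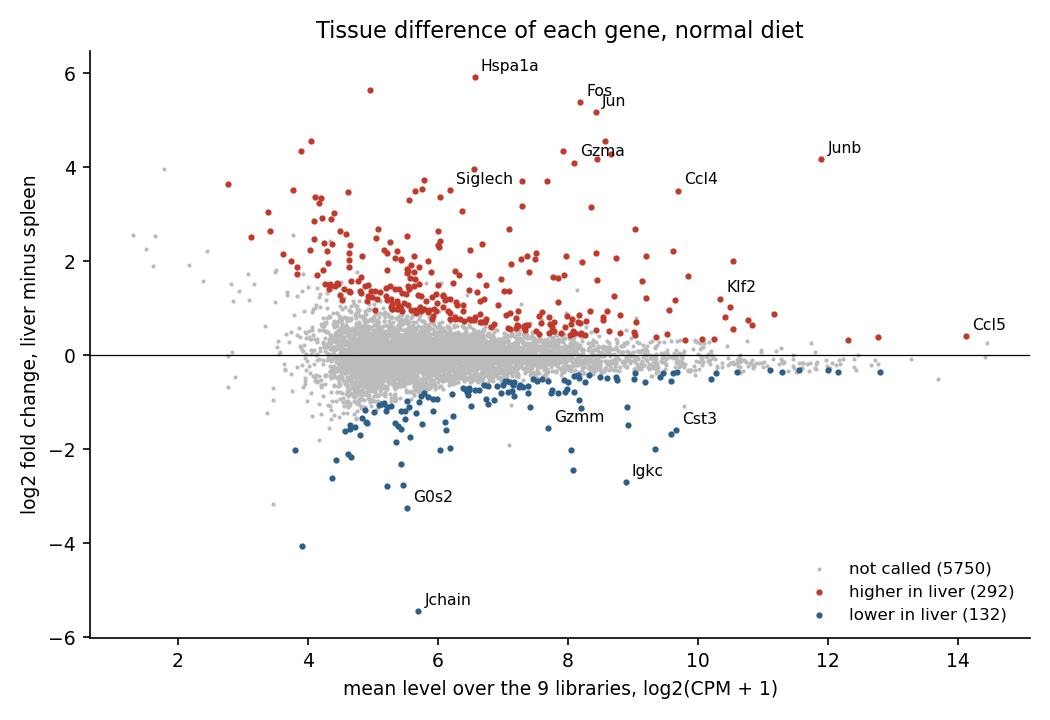
Each point is 1 of 6174 tested genes, with its mean level over the 9 libraries on the horizontal axis (log2 of CPM + 1) and its log2 fold change of liver CXCR6neg minus spleen CX3CR1neg on ND on the vertical axis. The 292 genes called higher in liver (red) reach 5.91 (Hspa1a) and the 132 called lower (blue) reach -5.45 (Jchain), while 5750 genes (grey) were not called.

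Immediate-early genes rose almost without exception. They encode AP-1 subunits, other transcription factors and the phosphatases and RNA-binding proteins that end the response, and are transcribed without new protein synthesis after receptor stimulation, stress or cell isolation. The way the tissues were dissociated is not given in the sources used here. Of 22 tested members of the AP-1 and immediate-early list, 21 rose and none of the 22 fell, where 4.73% of all tested genes rose. The spleen libraries here were too low in Fos, Fosb, Jun, Nr4a1, Nr4a2, Egr1 and Dusp5 to bring these genes past the count filter. The direction of those calls was partly set by the filter. The list's median log2 fold change was 2.32, against -0.0021 for all genes. In the 9 fits that each left out 1 library 21 or 22 members rose, and with the identical library in the liver group 19 did. Myc, a transcription factor of growth, was the tested member that did not pass, at 113, 131, 146 and 120.4 CPM in liver and 110.0, 162, 186, 147 and 188 CPM in spleen.

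Among the AP-1 subunits, Junb (chr8:84974484-84978718, minus strand) was at 9158, 8035, 7238 and 7609 CPM in the liver libraries and 466, 444, 419.5, 456 and 433 CPM in the spleen libraries. The lowest liver library stood far above the highest spleen library, and within each organ the libraries lay close together (4.17 ± 0.13, 18-fold, adjusted p = 6.77e-51). Fos was at 660.3, 714, 628 and 528 CPM in liver and 28.8, 5.12, 14.3, 13.8 and 18.8 CPM in spleen (5.38 ± 0.27, adjusted p = 5.62e-18). Jun was at 794, 858, 712 and 609 CPM in liver and 23.6, 17.1, 28.7, 16.9 and 18.8 CPM in spleen (5.17 ± 0.28, adjusted p = 2.68e-15). FOS and JUN proteins pair to form AP-1, and for neither gene did any spleen library come near a liver library. Fosb had 71 counts over the liver libraries and 2 over the spleen libraries, a ratio of 69.0 after scaling for depth (95% counting interval 18.4 to 581, counting error only). Fosl2 (1.80 ± 0.32) and Jund (1.79 ± 0.23) rose less, and neither overlapped between the groups.

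The nuclear receptor genes Nr4a1 and Nr4a2 are induced by T cell receptor signalling. Nr4a1 was at 474, 434, 509 and 634 CPM in liver and 47.1, 23.9, 25.1, 13.8 and 18.8 CPM in spleen (4.35 ± 0.30, adjusted p = 3.65e-12). Nr4a2 was at 180.1, 113, 94 and 53.1 CPM in liver and 7.86, 5.12, 17.9, 3.07 and 12.5 CPM in spleen (3.71 ± 0.45, adjusted p = 7.55e-08). Egr1, a zinc-finger factor downstream of ERK, was at 120.1, 140.0, 148 and 227 CPM in liver and 23.6, 13.7, 43, 13.8 and 6.27 CPM in spleen (3.06 ± 0.35, adjusted p = 1.59e-08). None of the 3 overlapped between the groups. The zinc-finger factor gene Klf6 rose as well (977 ± 78.6 CPM in liver, 156 ± 18.9 CPM in spleen, 2.68 ± 0.14), as did Ier2 (2.06 ± 0.12) and Csrnp1 (2.42 ± 0.26).

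Genes whose products end such responses rose with them. Dusp1, which removes phosphate from MAP kinases, was at 867, 836, 781 and 758 CPM in liver and 44.5, 17.1, 39.4, 38.4 and 37.6 CPM in spleen (4.56 ± 0.28, 23.6-fold, adjusted p = 5.05e-13). Its relatives Dusp2 (2.10 ± 0.39) and Dusp5 (2.48 ± 0.35) rose by less. Zfp36, which codes for tristetraprolin, a protein that marks AU-rich cytokine messages for decay, was at 467, 497, 546 and 489 CPM in liver and 128, 125, 115, 119.7 and 163 CPM in spleen (1.99 ± 0.14, adjusted p = 8.64e-25). Btg2, which slows proliferation through messenger deadenylation, was at 594, 469.8, 623 and 553 CPM in liver and 168, 241, 133, 178 and 182 CPM in spleen (1.61 ± 0.14, adjusted p = 3.08e-18). The groups did not overlap for either. Sik1, a kinase induced by cyclic AMP, had 33 counts over the liver libraries and 2 over the spleen libraries (ratio 32.1, 95% counting interval 8.21 to 276).

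NF-kB target genes that feed back on the pathway split within their list. Of 18 tested members of the NF-kB feedback list 6 (33.3%, against 4.73% of all tested genes) rose. None of the 18 fell, and the median was 0.33. Those that rose were the inhibitors Nfkbia, Nfkbid and Nfkbiz, the deubiquitinase gene Tnfaip3, and Cd69 and Tnf, which are members of other lists too. Tnfaip3, the gene of A20, was at 807, 691, 715 and 684 CPM in liver and 60.2, 30.7, 32.3, 27.6 and 75.2 CPM in spleen (4.17 ± 0.19, 17.9-fold, adjusted p = 1.95e-30). Nfkbia, the gene of the inhibitor IκBα, was at 660.3, 592, 663 and 570.3 CPM in liver and 296, 229, 269, 284 and 201 CPM in spleen (1.26 ± 0.13, adjusted p = 6.89e-14). Neither overlapped between the groups, and both calls held in every alternative tried. The genes of the NF-kB subunits themselves, Nfkb1, Nfkb2, Rel, Rela and Relb, did not pass.

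The promoters of 6 genes that rose are shown because each holds a short element known from stimulus-induced transcription. The letters are the 250 bases before the annotated start in the direction of transcription (RefSeq, GRCm38.p6, all on the minus strand), with the matched element in capitals. The cyclic AMP response element (CRE, TGACGTCA), the AP-1 element (TGANTCA), the kappaB element and the CArG box were searched on both strands. In Dusp1 (chr17:26508473-26508722), Btg2 (chr1:134079156-134079405) and Ppp1r15a (chr7:45526269-45526518) the capitals are a CRE. In Zfp36 (chr7:28379229-28379478) they are a CArG box, the site of serum response factor. In Tnfaip3 (chr10:19015411-19015660, the first of 2 annotated starts) and Nfkbia (chr12:55492648-55492897) they are kappaB elements.
Dusp1: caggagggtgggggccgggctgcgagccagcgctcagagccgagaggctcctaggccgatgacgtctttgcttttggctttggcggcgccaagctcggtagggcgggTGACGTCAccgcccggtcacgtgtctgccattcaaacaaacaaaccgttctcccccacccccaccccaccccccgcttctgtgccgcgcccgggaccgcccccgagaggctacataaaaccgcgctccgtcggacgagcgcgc
Btg2: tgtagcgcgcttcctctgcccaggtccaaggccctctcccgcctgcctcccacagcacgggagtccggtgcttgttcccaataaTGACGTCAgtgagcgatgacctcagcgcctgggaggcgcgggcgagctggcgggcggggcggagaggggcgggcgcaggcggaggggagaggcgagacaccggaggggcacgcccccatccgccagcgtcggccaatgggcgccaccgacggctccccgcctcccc
Ppp1r15a: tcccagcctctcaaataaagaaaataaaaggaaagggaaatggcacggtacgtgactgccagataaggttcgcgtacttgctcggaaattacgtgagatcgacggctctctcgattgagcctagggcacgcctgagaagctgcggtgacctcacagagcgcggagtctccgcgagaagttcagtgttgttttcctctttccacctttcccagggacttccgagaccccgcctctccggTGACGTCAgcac
Zfp36: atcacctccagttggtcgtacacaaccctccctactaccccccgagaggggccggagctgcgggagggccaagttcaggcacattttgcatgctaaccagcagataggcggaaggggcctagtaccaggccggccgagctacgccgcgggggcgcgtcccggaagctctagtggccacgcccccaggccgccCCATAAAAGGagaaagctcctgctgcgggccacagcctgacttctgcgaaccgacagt
Tnfaip3: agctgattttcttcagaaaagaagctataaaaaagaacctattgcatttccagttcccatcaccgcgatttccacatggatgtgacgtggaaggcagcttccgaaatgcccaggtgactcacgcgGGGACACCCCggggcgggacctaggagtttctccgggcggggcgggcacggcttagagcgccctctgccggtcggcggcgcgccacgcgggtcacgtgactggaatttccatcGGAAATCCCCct
Nfkbia: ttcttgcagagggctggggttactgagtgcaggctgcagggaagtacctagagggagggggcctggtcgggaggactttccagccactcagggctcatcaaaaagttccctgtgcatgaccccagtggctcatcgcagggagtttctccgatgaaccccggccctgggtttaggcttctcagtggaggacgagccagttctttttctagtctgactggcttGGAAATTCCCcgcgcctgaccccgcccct
The CRE began 143 bases before the start in Dusp1, 166 in Btg2 and 12 in Ppp1r15a, and the CArG box 58 bases before the start in Zfp36. Tnfaip3 had 2 kappaB matches, from 125 and 12 bases before the start, with an AP-1 match elsewhere in the window that overlapped neither, and Nfkbia had 1, from 29 bases before. The genes higher in liver had 215 promoters in the table, of which 3.26% held a CRE, 7.91% an AP-1 element, 9.3% a kappaB element and 0.93% a CArG box, and for 97 promoters of genes lower in liver the shares were 2.06%, 4.12%, 2.06% and 1.03%. Of the 4577 tested genes with a promoter in the table, 3.15% held a CRE, 4.17% an AP-1 element, 4.06% a kappaB element and 1.07% a CArG box. Of all 32851 promoters of this length, 1.55% held a CRE, 6.75% an AP-1 element, 3.9% a kappaB element and 1.47% a CArG box. Of the 21 immediate-early genes that rose, 18 had a promoter in the table, of which 2 held a CRE, 1 an AP-1 element, 4 a kappaB element and 2 a CArG box. These are matches of letters and not measured binding.

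**Figure D2:**
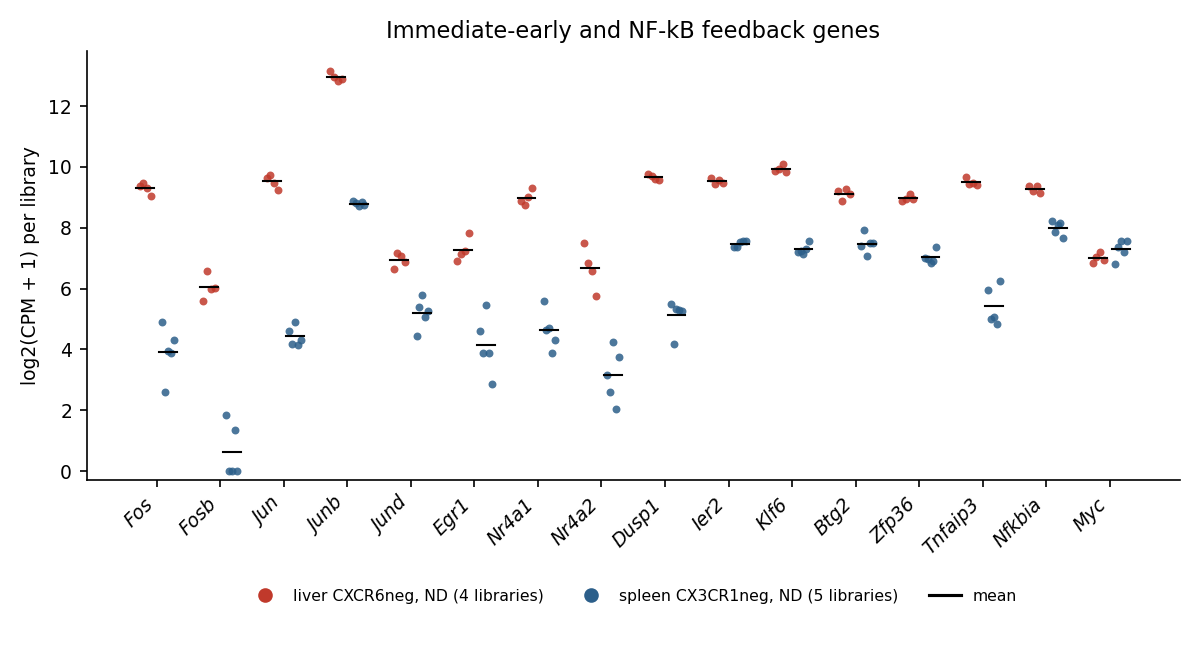
Levels of 16 immediate-early and NF-kB feedback genes, as log2 of CPM + 1 on the vertical axis, in the 4 liver CXCR6neg libraries (red, left of each pair) and the 5 spleen CX3CR1neg libraries (blue, right), with black bars at the mean of the plotted values. For every gene but Myc the liver libraries lie above all spleen libraries, for Junb at 7238 to 9158 CPM in liver and 419.5 to 466 CPM in spleen.

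Stress genes rose in part of their lists. Of 15 heat shock genes tested 4 (26.7%, against 4.73% of all tested genes) rose and none of the 15 fell. Hspa1a (chr17:34969190-34972156, minus strand), the inducible HSP70 chaperone, was at 280.1, 212, 181 and 152 CPM in liver and 5.24, 0, 0, 4.6 and 6.27 CPM in spleen. It had the largest fitted increase of all tested genes (5.91 ± 0.87, adjusted p = 2.02e-05), and 2 of the 5 spleen libraries held no count of it. Spleen levels were too low to bring Hspa1a past the count filter, which partly set the direction of its call. Its cochaperone gene Dnajb1 was at 580.3, 329.7, 368 and 361 CPM in liver and 126, 133, 96.8, 149 and 62.7 CPM in spleen (1.70 ± 0.25, adjusted p = 1.61e-05). Hsp90aa1 (1.35 ± 0.20) and the constitutive Hspa8 (0.56 ± 0.11) rose by less, while Hsp90ab1, Hspd1, Hspe1 and Hsf1 did not pass. Of 15 ER stress genes 4 (26.7%) rose and none of the 15 fell, with a median of 0.20. Ppp1r15a, the gene of GADD34, which lifts the translation block of the integrated stress response, was at 1141, 768, 734 and 751 CPM in liver and 55, 39.3, 43, 33.8 and 56.4 CPM in spleen (4.27 ± 0.18, adjusted p = 1.13e-36). Atf4, the transcription factor of that response (1.63 ± 0.15), the chaperone gene Hspa5 (1.20 ± 0.12) and Dnajb9 (1.76 ± 0.26) rose too, with no overlap between the groups. Liver replicate 2 was the highest library of all 4 ER stress genes and of Hspa1a, Dnajb1 and Hspa8.

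Genes of tissue residency rose in part. Cells that stay in a tissue carry CD69, which pulls the egress receptor S1PR1 off the surface, and integrins such as CD49a. Of 16 residency genes tested 9 (56.2%, against 4.73% of all tested genes) rose and none of the 16 fell, with a median of 1.25. Without liver replicate 5 the count that rose was 6. The list shares Nr4a1 with the immediate-early list and Cd69 with the NF-kB list. Cd69 (chr6:129267325-129275436, minus strand) was at 467, 438, 462 and 368 CPM in liver and 68.1, 116, 115, 95.1 and 107 CPM in spleen (2.12 ± 0.15, 4.33-fold, adjusted p = 4.61e-23). Bhlhe40, a transcription factor that resident cells need, was at 287, 257, 373 and 347 CPM in liver and 10.5, 18.8, 39.4, 27.6 and 37.6 CPM in spleen (3.70 ± 0.21, 13-fold, adjusted p = 1.57e-27). The groups did not overlap for either gene. Rgs1, a brake on chemokine receptor signalling, was at 380.2, 208, 354 and 276 CPM in liver and 47.1, 22.2, 32.3, 32.2 and 43.9 CPM in spleen (3.17 ± 0.35, adjusted p = 1.31e-07). Rgs2 (2.67 ± 0.20) and Rgcc (2.30 ± 0.27) rose without overlap, and Litaf (1.82 ± 0.43) rose with spleen replicate 5 inside the liver range.

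The integrin gene Itga1, which codes for CD49a, was at 6.67, 13.6, 44.5 and 46 CPM in liver and 15.7, 5.12, 21.5, 7.67 and 12.5 CPM in spleen. Liver replicates 4 and 5 were high and replicates 2 and 3 lay within the spleen range, and its call (1.51 ± 0.47, adjusted p = 0.0308) was lost without liver replicate 4 or 5 or spleen replicate 2 or 4 (adjusted p 0.114 to 0.271) and was not made by DESeq2. Litaf lost its call without liver replicate 5 (adjusted p = 0.0513). The residency factor genes Prdm1 and Runx3 and the chemokine gene Xcl1 did not pass, nor did Crtam, at -0.56 ± 0.25 (adjusted p = 0.191).

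Some genes of egress and recirculation rose. Of 18 tested members 4 (22.2%) rose, against 4.73% of all tested genes, and none of the 18 fell, with a median of 0.17. Those that rose were Cx3cr1, which the spleen gate removes, Klf2, S1pr5 and Ccr7. Klf2, the transcription factor that maintains S1pr1, was at 1821, 2146, 1924 and 1654 CPM in liver and 796, 792, 832, 861 and 828 CPM in spleen (1.20 ± 0.11, 2.29-fold, adjusted p = 1.01e-15), with no overlap. S1pr5, an egress receptor of effector cells, was at 40, 122, 96.4 and 156 CPM in liver and 36.7, 52.9, 50.2, 49.1 and 43.9 CPM in spleen, with liver replicate 2 inside the spleen range (1.19 ± 0.27, adjusted p = 0.00142), and it missed with the identical library in the liver group (adjusted p = 0.0594). S1pr1, the receptor that takes T cells out of tissue, was at 267, 348, 334 and 308 CPM in liver and 314, 413, 448, 424 and 364 CPM in spleen, and the ranges overlapped (-0.31 ± 0.14, adjusted p = 0.19). Ly6c2 (-0.28 ± 0.11, adjusted p = 0.119) did not pass either. The call of Ccr7, a homing receptor of naive cells (0.93 ± 0.29, adjusted p = 0.048), was lost in each of the 9 fits with 1 library left out (adjusted p 0.05 to 0.168), although the groups did not overlap.

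Cytotoxic and cytokine genes rose in the liver with a wide spread between its libraries. Of 22 cytotoxic genes tested 8 (36.4%) rose and 1 (4.55%) fell, against 4.73% and 2.14% of all tested genes, with a median of 0.29. Of 14 chemokine and cytokine genes 5 (35.7%) rose and none of the 14 fell, with a median of 1.41, and Ifng is in both lists. Gzma (chr13:113093825-113100981, minus strand), the protease granzyme A, was at 173, 402, 673 and 1017 CPM in liver and 52.4, 27.3, 21.5, 29.2 and 56.4 CPM in spleen (4.09 ± 0.53, 17.1-fold, adjusted p = 2.66e-06). Gzmb, granzyme B, was at 160.1, 407, 910.0 and 1052 CPM in liver and 52.4, 52.9, 78.9, 95.1 and 119 CPM in spleen (3.14 ± 0.42, 8.81-fold, adjusted p = 5.11e-06). For both genes liver replicate 2 was the lowest liver library, yet it stood above every spleen library. Gzmm, granzyme M, went the other way, at 100.05, 122, 104 and 77.9 CPM in liver and 330.0, 301, 305, 292 and 226 CPM in spleen (-1.56 ± 0.29, adjusted p = 0.000456), with no overlap. Gzmk, granzyme K (0.69 ± 0.39, adjusted p = 0.365), did not pass, and in it liver replicate 2 was the highest library. The genes of the pore former perforin, Prf1 (219 ± 9.89 CPM in liver, 182 ± 42.4 CPM in spleen, adjusted p = 0.415), and of the granule protein Nkg7 (0.25 ± 0.10, adjusted p = 0.162) did not pass.

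Fasl, the ligand of the death receptor FAS, was at 200.1, 172, 272 and 294 CPM in liver and 44.5, 66.6, 64.5, 72.1 and 56.4 CPM in spleen (1.94 ± 0.18, 3.84-fold, adjusted p = 6.53e-17). Srgn, the proteoglycan that packs granule proteins, was at 1035 ± 51.6 CPM in liver and 527 ± 22.2 CPM in spleen (0.97 ± 0.12). Neither overlapped between the groups. Klrg1, a marker of late effector cells, was at 20, 90.3, 119 and 131 CPM in liver and 2.62, 5.12, 10.8, 15.3 and 18.8 CPM in spleen (3.30 ± 0.60, adjusted p = 0.000376), and Zeb2, a transcription factor of such cells, rose with it (2.56 ± 0.49, adjusted p = 3.75e-05). Spleen levels of Klrg1 were too low to bring it past the count filter, which partly set the direction of its call. Klrg1, Zeb2 and Cx3cr1 mark overlapping sets of effector cells in mice, and the spleen was sorted without CX3CR1-positive cells. In bulk RNA fewer cells of a type and less RNA per cell cannot be told apart. The NK cell marker list, which holds Gzma, summed to 760.4 to 1718 CPM in liver and 298 to 424 CPM in spleen, while its defining receptor gene Ncr1 had no count in either group, and the part of NK cells was not tested. Ctsd, a lysosomal protease gene, passed narrowly (0.33 ± 0.11, adjusted p = 0.0491) and held only without liver replicate 2 or 3, with adjusted p of 0.0552 to 0.22 in the other 7 fits that left out 1 library.

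Among cytokines, Ifng, interferon gamma, was at 107, 199, 255 and 205 CPM in liver and 18.3, 8.54, 3.59, 13.8 and 25.1 CPM in spleen (3.96 ± 0.33, 15.5-fold, adjusted p = 3.91e-12). Tnf was at 53.4, 126, 141 and 184 CPM in liver and 13.1, 6.83, 7.17, 15.3 and 31.3 CPM in spleen (3.36 ± 0.46, 10.3-fold, adjusted p = 5.37e-06). All liver libraries were above all spleen libraries for both, with liver replicate 2 the lowest of the liver. Spleen levels of Ifng and Tnf were too low to bring these genes past the count filter, which partly set the direction of their calls. The chemokine gene Ccl3 was at 140.1, 366, 522 and 613 CPM in liver and 36.7, 23.9, 39.4, 29.2 and 56.4 CPM in spleen (3.70 ± 0.49, 13-fold, adjusted p = 3.99e-06). Ccl4 was at 794, 1251, 1741 and 2855 CPM in liver and 141, 99, 197, 159.6 and 176 CPM in spleen (3.50 ± 0.35, 11.3-fold, adjusted p = 2.15e-08). The related chemokine gene Ccl5 also passed. Ccl5 was at 19276, 19255, 21006 and 22448 CPM in liver and 14129, 13542, 15816, 14655 and 19109.8 CPM in spleen (0.41 ± 0.11, 1.33-fold, adjusted p = 0.0114), a small change that did not pass without liver replicate 4 or 5 or spleen replicate 1 or 2 (adjusted p 0.0538 to 0.0668). Xcl1 (0.43 ± 0.31, adjusted p = 0.5) did not pass.

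**Figure D3:**
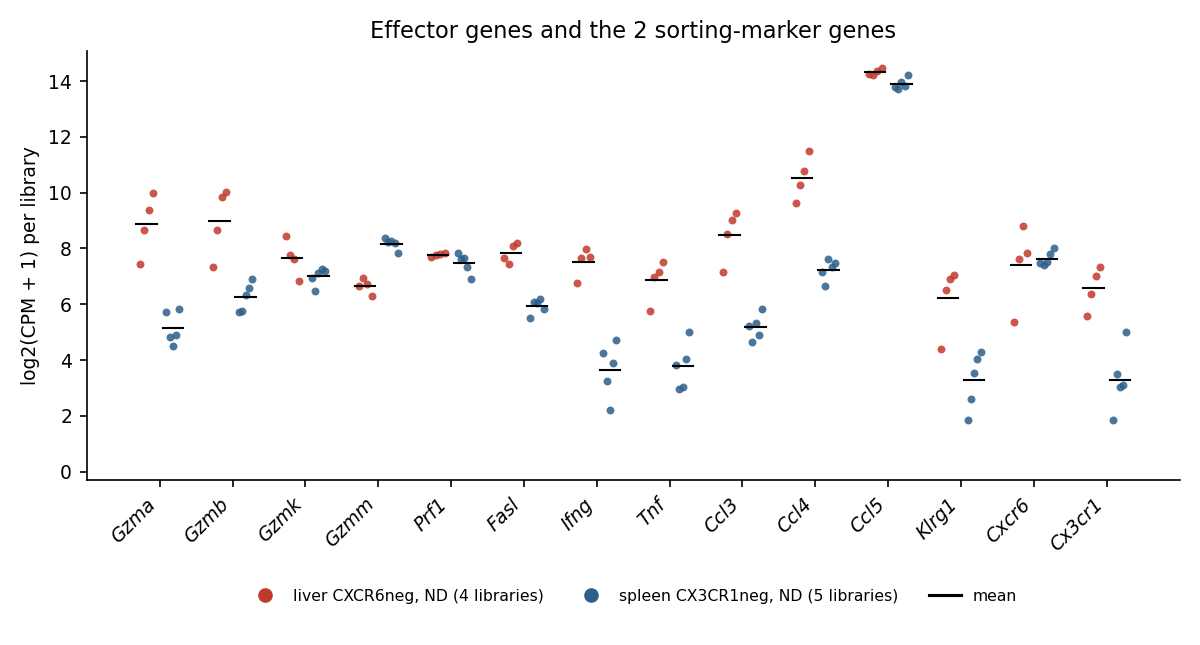
Levels of 12 effector genes and of the 2 genes of the sorting markers, Cxcr6 and Cx3cr1, as log2 of CPM + 1 on the vertical axis, in the 4 liver CXCR6neg libraries (red, left of each pair) and the 5 spleen CX3CR1neg libraries (blue, right), with black bars at the mean of the plotted values. Liver points of Gzma spread over 173 to 1017 CPM and still lie above the spleen points, whereas Cxcr6 overlaps and Gzmm is lower in liver.

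Chemokine receptors and killer lectin-like receptors moved in both directions. Of 9 chemokine receptor genes tested 4 (44.4%) rose and 1 (11.1%) fell, against 4.73% and 2.14% of all tested genes. The 4 include Cx3cr1, on whose product the spleen gate selected, so its rise is not a finding. Beside Cx3cr1 and Ccr7, Cxcr4, the receptor of CXCL12, was at 73.4, 45.2, 39.6 and 31.9 CPM in liver and 21, 13.7, 17.9, 15.3 and 6.27 CPM in spleen (1.49 ± 0.39, adjusted p = 0.00525), without overlap, but missed with the identical library in the liver group (adjusted p = 0.0657). Ccr9 rose as well (2.90 ± 0.76, adjusted p = 0.0123) and is also in the list of plasmacytoid dendritic cell markers described further on. Cxcr3, the receptor of interferon-induced chemokines, fell, at 207, 285, 376 and 279.8 CPM in liver and 414, 371, 409, 437 and 451 CPM in spleen (-0.48 ± 0.13, adjusted p = 0.0121). Without liver replicate 3 or 5, or spleen replicate 4, 2 of the chemokine receptor genes rose, Ccr9 no longer passing (adjusted p 0.0509 to 0.052), and Cxcr3 did not pass without liver replicate 2 (adjusted p = 0.0672) or 5 (adjusted p = 0.0573). Of 13 killer lectin-like receptor genes 2 (15.4%) rose and 3 (23.1%) fell. Among them were Klra9 (1.41 ± 0.34, adjusted p = 0.00194) and Klrg1 upward and Klra6 (-1.85 ± 0.50, adjusted p = 0.017) and Klra7 (-1.29 ± 0.37, adjusted p = 0.0257) downward. Without liver replicate 4 or 5 the count that fell was 1, with adjusted p of 0.0607 to 0.113 for Klra6 and Klra7. Klra genes are near-identical copies that code for Ly49 receptors, and how reads were divided among them is uncertain.

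Genes of inhibitory receptors were called one by one. Of 19 genes of inhibitory receptors and exhaustion 5 (26.3%) rose and 1 (5.26%) fell, against 4.73% and 2.14% of all tested genes. The median was 0.28, and without liver replicate 4 or spleen replicate 1 the count that rose was 3. Pdcd1, the gene of PD-1, was at 6.67, 22.6, 19.8 and 28.3 CPM in liver and 23.6, 13.7, 14.3, 18.4 and 12.5 CPM in spleen (0.28 ± 0.56, adjusted p = 0.863). Tox, a transcription factor of exhausted cells, was at 140.1, 54.2, 69.2 and 42.5 CPM in liver and 73.3, 54.6, 75.3, 69.1 and 43.9 CPM in spleen (0.11 ± 0.33, adjusted p = 0.918). The ranges of the groups overlapped for both. The genes that rose were Nr4a2, described above, Rgs16 (3.52 ± 0.62, adjusted p = 8.78e-06), the receptor gene Cd244a (1.86 ± 0.58, adjusted p = 0.0289), the NAD-consuming ectoenzyme gene Cd38 (1.25 ± 0.37, adjusted p = 0.0226) and Lag3. Lag3 had 11 counts over the liver libraries and 1 over the spleen libraries (ratio 21.4, 95% counting interval 3.11 to 921). Cd244a lost its call without liver replicate 4 or 5 or spleen replicate 1, 2 or 4 (adjusted p 0.0634 to 0.112), and Cd38 without liver replicate 4 or spleen replicate 1 or 4 (adjusted p 0.0533 to 0.295) and by DESeq2 (adjusted p = 0.0752). Btla, the receptor that fell, was at 13.3, 9.03, 9.89 and 14.2 CPM in liver and 31.4, 39.3, 57.4, 30.7 and 37.6 CPM in spleen (-1.71 ± 0.44, adjusted p = 0.00488), without overlap.

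Naive and memory genes were called in both directions. Of 19 tested 2 (10.5%) rose, Ccr7 and Ccr9, and 3 (15.8%) fell, against 4.73% and 2.14% of all tested genes, with a median of -0.25. Cd27, a costimulatory receptor, was at 247, 266, 269.5 and 184 CPM in liver and 406, 391, 301, 345 and 339 CPM in spleen (-0.57 ± 0.14, adjusted p = 0.0019), without overlap. Treml2 (-1.18 ± 0.30, adjusted p = 0.00433) and Id3, an inhibitor of E proteins (-0.86 ± 0.27, adjusted p = 0.0362), fell too, and without liver replicate 5 the count that fell was 1, as Cd27 (adjusted p = 0.0553) and Id3 (adjusted p = 0.209) no longer passed. Ccr7 and Ccr9 both missed without liver replicate 3 or 5 or spleen replicate 4. Id3 also missed by DESeq2 (adjusted p = 0.0971) and without liver replicate 4 or spleen replicate 1, 4 or 5 (adjusted p 0.0548 to 0.342). Tcf7, the gene of the memory factor TCF1, was at 354, 379, 242 and 262 CPM in liver and 375, 357, 380.1, 381 and 257 CPM in spleen (-0.25 ± 0.14, adjusted p = 0.35). The ranges overlapped, and Lef1 (0.04 ± 0.21, adjusted p = 0.963) and Il7r, the IL-7 receptor (-0.30 ± 0.16, adjusted p = 0.323), did not pass either.

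Genes of cytokine signalling and survival followed. Of 24 interleukin receptor and STAT5 feedback genes 4 (16.7%) rose and 1 (4.17%) fell, against 4.73% and 2.14% of all tested genes. Cish, a STAT5 target, was at 13.3, 45.2, 96.4 and 106 CPM in liver and 13.1, 15.4, 21.5, 18.4 and 25.1 CPM in spleen, with liver replicate 2 in the spleen range (2.05 ± 0.34, adjusted p = 4e-06). The kinase gene Pim1 (1.14 ± 0.21), the suppressor gene Socs3 (1.06 ± 0.21) and Ifngr1 (0.44 ± 0.12) rose, and Il2rb, the shared beta chain of the IL-2 and IL-15 receptors, fell (670.4 ± 69.3 CPM in liver, 876 ± 25.2 CPM in spleen, -0.38 ± 0.12, adjusted p = 0.0268). The calls of Ifngr1 (adjusted p 0.0501 to 0.101 without liver replicate 2 or 4 or spleen replicate 1 or 4) and Il2rb (adjusted p 0.0538 to 0.131 without liver replicate 3 or 5 or spleen replicate 2 or 4) each held in the other 5 fits. Of 22 genes of the BCL2 family and apoptosis 7 (31.8%) rose and none of the 22 fell. Those that rose included Gadd45b, a stress-induced gene (2.63 ± 0.28), the BH3-only gene Pmaip1 (1.74 ± 0.30) and the death receptor gene Fas (1.09 ± 0.32, adjusted p = 0.0195), which missed without liver replicate 5 (adjusted p = 0.112) or spleen replicate 4 (adjusted p = 0.0517). Of 7 tested TGF-beta response genes 3 (42.9%) rose, Rgs1, the repressor gene Tgif1 (1.14 ± 0.26) and the inhibitor gene Smad7 (1.15 ± 0.34), which missed without liver replicate 2 or 3 or spleen replicate 2 or 4 (adjusted p 0.0785 to 0.121). Of 18 MHC class I genes 4 (22.2%) rose and none of the 18 fell. Among those that rose was B2m, the light chain of class I molecules (7934 ± 430.3 CPM in liver, 6120.2 ± 199.8 CPM in spleen, 0.38 ± 0.10, adjusted p = 0.00561). Without spleen replicate 1, or with the identical library in both groups, 2 class I genes rose.

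**Figure D4:**
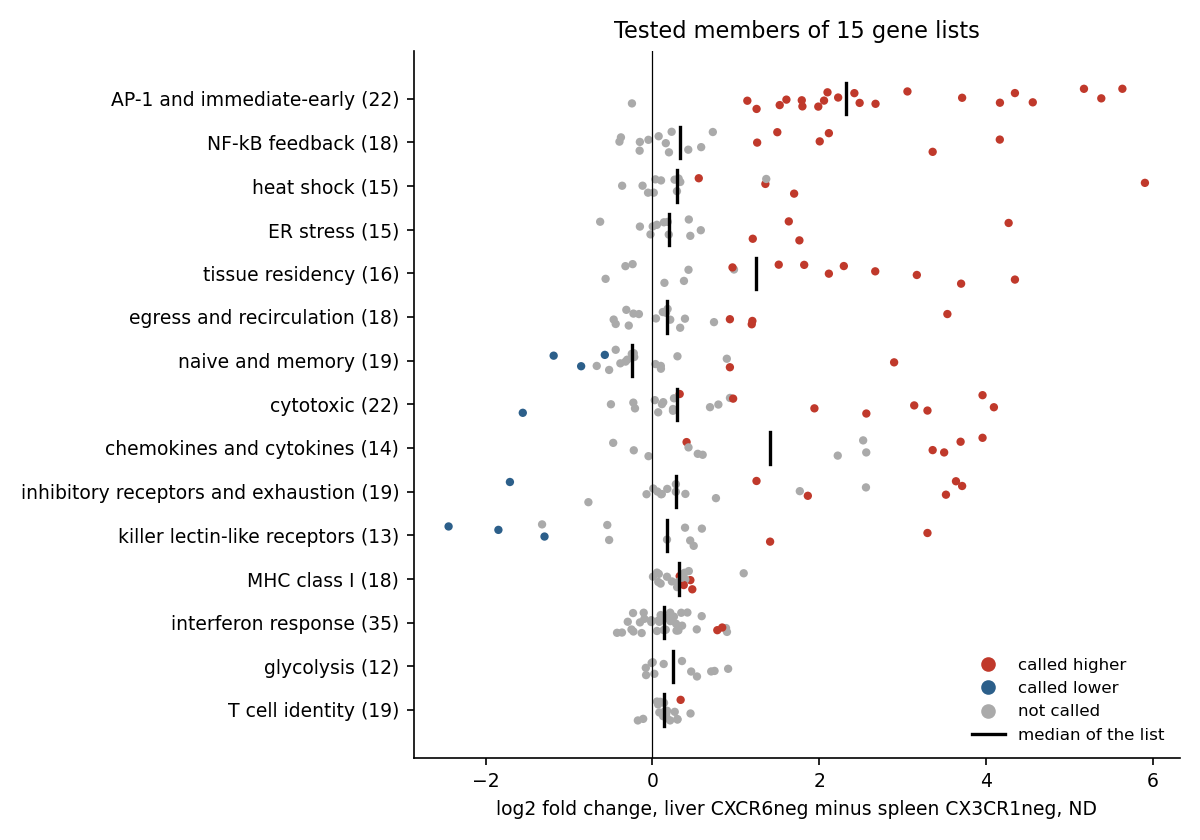
Log2 fold changes of liver CXCR6neg minus spleen CX3CR1neg on ND (horizontal axis) for the tested members of 15 gene lists, 1 row each with the number tested in brackets. Points are genes, red where called higher, blue where called lower and grey where not called, and black bars are list medians, which reach 2.32 for the AP-1 and immediate-early list and lie near 0 for T cell identity genes.

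In other programs most tested genes did not pass. Of 35 interferon response genes 2 (5.71%, against 4.73% of all tested genes) rose, Irf7 (0.78 ± 0.17) and Bst2, both also high in plasmacytoid dendritic cells, and none of the 35 fell. Bst2 missed without liver replicate 3 or 5 or spleen replicate 2 (adjusted p 0.0502 to 0.0885), which left 1 gene. Of 12 glycolysis genes and 10 mitochondrially encoded genes none was called in either direction by edgeR, where 2 genes of each list had an unadjusted p under 0.05, and DESeq2 called none of the glycolysis genes and 1 mitochondrially encoded gene lower. Of 83 nuclear genes of oxidative phosphorylation 2 (2.41%) fell and none of the 83 rose, and of 78 cytosolic ribosomal protein genes 7 (8.97%) fell, against 2.14% of all tested genes, and 2 (2.56%) rose, with a median of -0.18. Of 13 proliferation genes 2 (15.4%) rose, among them the replication clamp gene Pcna (0.87 ± 0.20), which passed in each fit with 1 library left out, while the count was 1 in 6 of those 9 fits and by DESeq2. Among solute carriers, the amino acid transporter genes Slc3a2 (0.93 ± 0.14) and Slc38a2 (1.38 ± 0.23) rose, 14.3% of the 14 tested, and the other 12 did not pass.

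Several of the largest decreases in liver were in markers of B cells and antibody-secreting cells. Jchain, the joining chain of secreted antibodies, had 2 counts over the liver libraries and 212 over the spleen libraries, 54.5-fold lower after scaling for depth (95% counting interval 14.9 to 453). Igkc, the kappa light chain constant region, was at 260.1, 126, 84.1 and 60.2 CPM in liver and 1037, 1074, 527, 560.1 and 520.4 CPM in spleen (-2.70 ± 0.57, adjusted p = 0.00207). No liver library reached a spleen library for either gene. Liver levels of Jchain were too low to bring it past the count filter, which partly set the direction of its call. Iglc2, a lambda constant gene, fell with overlapping ranges (-2.80 ± 0.74, adjusted p = 0.0166). The MHC class II gene H2-Eb1 was at 80, 131, 61.8 and 120.4 CPM in liver and 432, 399.5, 351, 318 and 470.2 CPM in spleen (-2.01 ± 0.37, adjusted p = 0.000368), and H2-Ab1 (-1.69 ± 0.38) and H2-Aa (-1.49 ± 0.38) fell with it. Ighm, the IgM heavy chain, also fell (-1.11 ± 0.32, adjusted p = 0.0291), a call that held only without liver replicate 3 or spleen replicate 5 (adjusted p 0.0504 to 0.121 in the other 7 fits). Without liver replicate 4, Iglc2 (adjusted p = 0.105) and H2-Aa (adjusted p = 0.087) also missed, as did Iglc2 (adjusted p = 0.0789) and Ly6d (adjusted p = 0.0708) without liver replicate 5 and Ly6d without spleen replicate 4 (adjusted p = 0.0535). DESeq2 called neither Iglc2 (adjusted p = 0.0688) nor Ly6d (adjusted p = 0.062). Of 8 tested B cell markers 5 fell and 1 rose, Ly6d (2.35 ± 0.61, adjusted p = 0.0152), against 2.14% of all tested genes lower. Cd79b and Cd74 were not called, and the MHC class II genes among those that fell are genes of dendritic cells as well. Without liver replicate 4 the count that fell was 3, and with the identical library in the liver group it was 2, as H2-Aa (adjusted p = 0.206), H2-Ab1 (adjusted p = 0.185) and H2-Eb1 (adjusted p = 0.103) missed. The summed level of the B cell list was 1249 to 2508 CPM in liver and 3924 to 6132 CPM in spleen. Cd79a, Ebf1 and Fcer2a had no count in liver and only 5, 13 and 10 counts over the spleen libraries. For Cd79a the counting interval of spleen over liver, from 0.471, includes no difference. The part of B cells or antibody-secreting cells in these differences was not tested.

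Markers of conventional dendritic cells fell too. Cst3, the protease inhibitor cystatin C, was at 414, 361, 284 and 468 CPM in liver and 1129, 1098, 1137, 1002 and 1379 CPM in spleen (-1.60 ± 0.26, adjusted p = 7.64e-05). Naaa, a lysosomal amidase gene, was at 13.3, 22.6, 9.89 and 7.08 CPM in liver and 68.1, 59.8, 57.4, 58.3 and 81.5 CPM in spleen (-2.31 ± 0.38, adjusted p = 1.66e-06). These were the 2 tested of 9 listed markers and neither overlapped between the groups. The liver libraries were too low in Naaa to bring it past the count filter, so the direction of its call was partly set by the filter. The list's summed level was 321 to 489 CPM in liver and 1139 to 1574 CPM in spleen, with Xcr1, Zbtb46 and Wdfy4 at 0 in liver. Cst3 made up most of that sum in every library, so the sum largely repeats the result of Cst3. Zbtb46 had only 4 counts over the spleen libraries, too few to show a difference, and Wdfy4 had 22. Xcr1, the receptor of cross-presenting dendritic cells, which in mice carry CD8 alpha chains, had 0 counts in liver and 24 in spleen, which is at least 4.11-fold lower with the floor set at 3 counts for the liver group. Genes found in myeloid cells moved in both directions. Those that fell included Plbd1 (-2.77 ± 0.53, adjusted p = 0.000252), Aif1 (-2.18 ± 0.46, adjusted p = 0.000252), Lyz2 (-2.02 ± 0.63, adjusted p = 0.0312) and Cd83 (-2.23 ± 0.60, adjusted p = 0.00807). Cd68, a lysosomal gene of macrophages and with Lyz2 the other tested marker of the Kupffer cell and macrophage list, rose with overlapping ranges (1.35 ± 0.43, adjusted p = 0.0347), a call lost without liver replicate 2, 3 or 5 or spleen replicate 1, 2 or 3 (adjusted p 0.0594 to 0.14) and not made by DESeq2 (adjusted p = 0.0599). Dnase1l3, a nuclease gene of such cells, had 1 count in liver and 45 in spleen and was 23.1-fold lower after scaling (95% counting interval 3.95 to 934). It stands in the endothelial marker list here, where it fell and Fcgr2b, the other of 2 tested genes, was not called. The calls of Lyz2 (adjusted p 0.0674 to 0.107 without liver replicate 2, 3 or 5 or spleen replicate 2 or 3, and 0.0765 by DESeq2) and Cd83 (adjusted p = 0.0538 without liver replicate 4) rested on those libraries. With the identical library in the liver group none of Cst3 (-0.98, adjusted p = 0.0657), Naaa (-0.97, adjusted p = 0.156), Plbd1 (-1.15, adjusted p = 0.252) and Dnase1l3 (-1.63, adjusted p = 0.108) passed. The part of dendritic cells in these differences was not tested.

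Other large decreases were in genes outside these marker lists. G0s2, an inhibitor of triglyceride lipase, was at 13.3, 4.52, 7.42 and 7.08 CPM in liver and 94.3, 87.1, 53.8, 67.5 and 69 CPM in spleen (-3.26 ± 0.42, 9.57-fold lower, adjusted p = 6.98e-10), without overlap. Liver levels of G0s2 were too low to bring it past the count filter, which partly set the direction of its call. The tetraspanin gene Cd81 (-2.62 ± 0.57, adjusted p = 0.000424), the zinc-finger gene Zfp296 (-2.10 ± 0.53, adjusted p = 0.00445) and the noncoding RNA gene Snhg20 (-2.02 ± 0.30, adjusted p = 9.4e-08) fell as well. Cd81 did not pass with the identical library in the liver group (-1.17, adjusted p = 0.116), nor Zfp296 with it in the spleen group (adjusted p = 0.0664).

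Markers of plasmacytoid dendritic cells went the opposite way. These cells make type I interferon and carry the lectin Siglec-H. Of 12 tested markers 8 (66.7%, against 4.73% of all tested genes) rose and none of the 12 fell, with a median of 2.66. The spleen libraries here were too low in Siglech, Cox6a2, Klk1, Tcf4, Smim5 and Ccr9 to bring these genes past the count filter. The direction of their calls was therefore partly set by the filter. Siglech (chr7:55768178-55778925, plus strand) was at 147, 158, 64.3 and 205 CPM in liver and 15.7, 12, 7.17, 7.67 and 25.1 CPM in spleen (3.51 ± 0.69, 11.4-fold, adjusted p = 0.000977). Cox6a2 was at 120.1, 113, 51.9 and 120.4 CPM in liver and 2.62, 8.54, 0, 13.8 and 12.5 CPM in spleen (3.49 ± 0.72, adjusted p = 0.00172), and Klk1 at 46.7, 45.2, 44.5 and 53.1 CPM in liver and 5.24, 5.12, 10.8, 0 and 0 CPM in spleen (3.47 ± 0.67, adjusted p = 0.000268). Neither group of libraries reached into the other for these 3 genes, and liver replicate 4 was the lowest liver library in each. Tcf4, the transcription factor that defines the lineage (3.23 ± 0.63, adjusted p = 7.96e-05), Smim5 (3.37 ± 0.81), the adaptor gene Tyrobp (1.77 ± 0.45) and Bst2 (0.84 ± 0.22) rose, while Irf8 (1.09 ± 0.45, adjusted p = 0.175) and Pld4 (1.53 ± 0.59, adjusted p = 0.14) did not pass although their libraries did not overlap. The list's summed level was 791 to 1792 CPM in liver and 387 to 466 CPM in spleen, and no marker was at 0 in either. Without liver replicate 5 the count that rose was 4, as Ccr9 (adjusted p = 0.0511), Bst2 (adjusted p = 0.0502), Smim5 (adjusted p = 0.0693) and Tyrobp (adjusted p = 0.096) missed, and with the identical library in the liver group it was 5. The part of plasmacytoid dendritic cells in the genes they share with T cells, such as Ccr9 and Irf7, was not tested.

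Red cell genes were higher in liver as well. Hba-a1, an alpha globin gene, was at 2108, 1179, 997 and 1261 CPM in liver and 458, 179, 251, 279 and 326 CPM in spleen (2.21 ± 0.44, adjusted p = 0.00111). Hbb-bs, a beta globin gene, was at 4756, 1929, 1726 and 1817 CPM in liver and 843, 398, 642, 648 and 633 CPM in spleen (2.00 ± 0.46, adjusted p = 0.00522). Liver replicate 2 held the most of both, and globin copies share sequence, so the split among them is uncertain. Of 5 tested erythroid markers 3 (60%, against 4.73% of all tested genes) rose. The list summed to 3900 to 9018 CPM in liver and 818 to 1962 CPM in spleen. The part of red cells was not tested. In the NK cell list Gzma and Tyrobp were the 2 of 6 tested genes (33.3%) that rose, Tyrobp not without liver replicate 5. Klrb1c (0.49 ± 0.37) and Eomes (-0.50 ± 0.28) did not pass. Hepatocyte markers summed to 86.7 to 136 CPM in liver and 52.4 to 108 CPM in spleen. Neutrophil markers were at 0 in liver and at most 2.62 CPM in spleen.

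**Figure D5:**
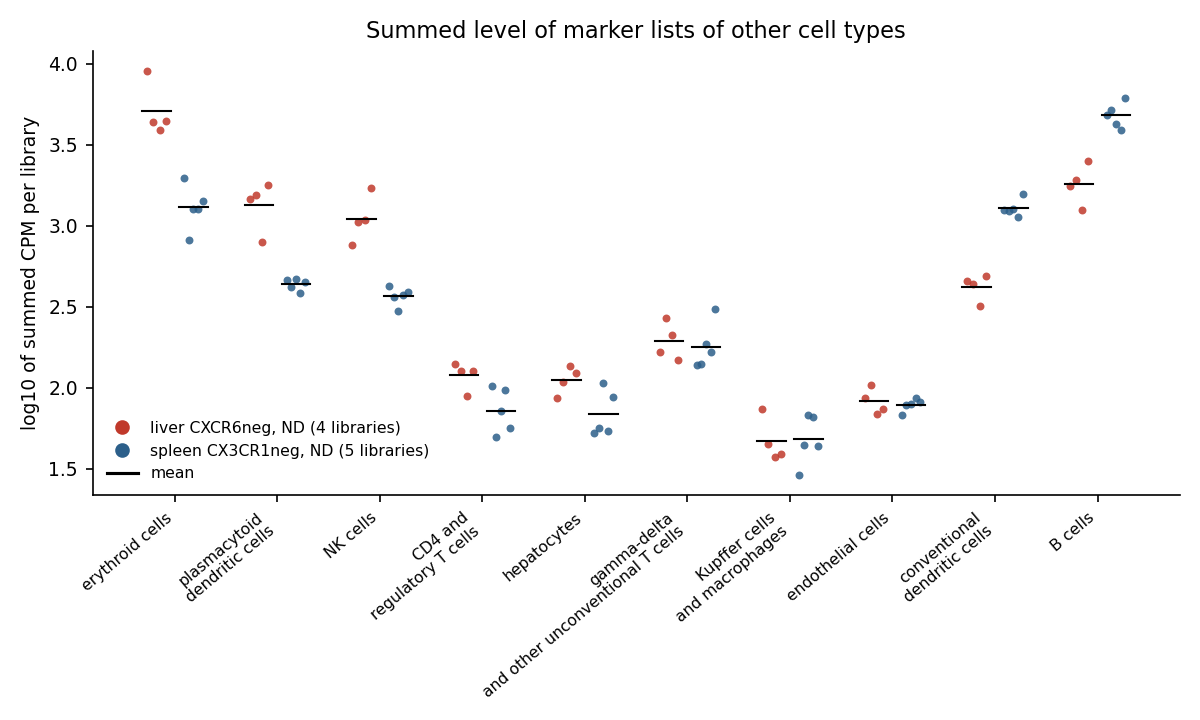
Summed CPM of marker lists of 10 other cell types, as log10 on the vertical axis, in each of the 4 liver CXCR6neg libraries (red, left of each pair) and 5 spleen CX3CR1neg libraries (blue, right), with black bars at the mean of the plotted values. Erythroid, plasmacytoid dendritic cell and NK lists are higher in every liver library and conventional dendritic cell and B cell lists lower in every liver library than in any spleen library, while hepatocyte, Kupffer cell and endothelial lists overlap. The sum of the conventional dendritic cell list is mostly Cst3.

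The same tissue comparison under CD-HFD, with 6 libraries in each group, shares no library with the ND one. There 645 genes (10.4%) were called, 354 higher (5.73%) and 291 lower (4.71%) in liver. Of the 424 genes called on ND, 268 were called in the same direction on CD-HFD and none of the 424 in the opposite one, which is 63.2% of the ND calls and 41.6% of the CD-HFD calls. Immediate-early genes gave 20 of 22 higher on CD-HFD, with Junb at 3.72 ± 0.11 and Dusp1 at 4.36 ± 0.23. Plasmacytoid dendritic cell markers gave 11 of 12 higher, with Siglech at 3.41 ± 0.53, under the same limit of the count filter. Gzma (2.60 ± 0.47), Gzmb (2.43 ± 0.35) and Ccl3 (2.14 ± 0.42) rose there too.

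No gene passed in the test of whether the tissue difference itself differed between the diets, by edgeR (smallest adjusted p = 0.058, with 319 genes at an unadjusted p under 0.05). DESeq2 called 2 genes, Apoe and Jun, with 219 at an unadjusted p under 0.05. Apoe, the lipid carrier apolipoprotein E, had the smallest p in edgeR, with a tissue difference of 0.45 ± 0.38 on ND and -2.53 ± 0.41 on CD-HFD (difference 2.98 ± 0.58). The call count was 5 without liver replicate 2, namely Apoe, Lgals3, Rab37, S1pr5 and Snord118. Jun was at 5.17 ± 0.28 on ND and 3.50 ± 0.24 on CD-HFD, and the galectin gene Lgals3 at 2.05 ± 0.35 on ND and 0.08 ± 0.31 on CD-HFD. The inhibitory receptor list gave 5 of 19 higher on ND and 12 of 19 on CD-HFD, where Pdcd1 (1.48 ± 0.27, adjusted p = 0.000117) and Tox (0.82 ± 0.21, adjusted p = 0.00801) passed. The difference between the diets did not pass for Pdcd1 (-1.20 ± 0.62, adjusted p = 0.936) or Tox (-0.71 ± 0.39, adjusted p = 0.936).

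The CXCR6pos fraction of ND livers was set against the same 5 spleen libraries, so its values stand beside those above and are not independent of them. With 6 libraries of 15633 to 494700 counts it gave 890 called genes (14.4%), 459 higher (7.43%) and 431 lower (6.98%) than in spleen. Against spleen, Junb differed by 4.17 ± 0.13 in CXCR6neg and 4.12 ± 0.12 in CXCR6pos cells, and Dusp1 by 4.56 ± 0.28 in CXCR6neg and 4.60 ± 0.27 in CXCR6pos cells. Gzmb differed by 3.14 ± 0.42 in CXCR6neg and 4.03 ± 0.40 in CXCR6pos cells. Cxcr6, the gene of the gate, differed by 0.38 ± 0.37 in CXCR6neg and 1.45 ± 0.31 in CXCR6pos cells. Siglech differed by 3.51 ± 0.69 in CXCR6neg cells and by 1.48 ± 0.83 in CXCR6pos cells, where it did not pass (adjusted p = 0.28). The memory factor gene Tcf7 differed by -0.25 ± 0.14 in CXCR6neg and -0.67 ± 0.13 in CXCR6pos cells, and it passed in CXCR6pos cells alone (adjusted p = 4.78e-05). The difference between the fractions themselves was not tested here.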

How the data were processed

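Bulk 3′ RNA sequencing libraries of sorted CD8 T cells were prepared with barcoded oligo-dT primers that carry molecular identifiers, per the labels' protocols. The authors deposited 1 table of counts of 22865 genes in 35 columns of values; whether these are reads or collapsed identifiers is not given in the sources used here, and 1 column, headed as replicate 6 of the ND liver CXCR6neg group, matches no sample label and was not used. The submitters' processing notes name GRCm38.p6 and DESeq2 1.14.1. Counts at 3′ ends carry no gene length, so levels are compared within a gene and not between genes.

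Each library was assigned to its group by its title. All 6 groups (32 libraries, without both copies of the identical library) were fitted together with edgeR 4.0.16 (R 4.3.3): TMM scaling, filterByExpr by group, robust quasi-likelihood fit, and Benjamini-Hochberg adjustment over 6174 genes at 0.05. A fold change is log2 of liver over spleen, its SE is the change divided by the square root of F, and CPM are counts scaled to a common library size over the tested genes. Alternatives were DESeq2 1.42.0, other scaling and filters, the 2 groups alone, a replicate block, the identical library kept, and each library left out in turn. Counting intervals are exact at 95%, and 3 counts were taken as the floor.

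Simulated counts for 5720 genes of this comparison gave calls for 70% of 100 genes changed 2-fold and 95% of 100 genes changed 4-fold, with 1 false call of 166. The changed genes averaged at least 20 CPM in spleen, and counts were drawn with the dispersions of the fit. These rates therefore do not cover genes near 0 in spleen or variation between libraries beyond the fit. The members and gene lists were chosen with earlier results of these data known. Named genes were the 15 largest changes per direction among called genes averaging 20 CPM or more in one of the groups, the 6 smallest p-values per list, markers of other cells, the genes of the gates and a set of T cell genes, and the 6 smallest p-values for the diets; others were named after their values were seen, and some genes under this rule are not reported here. Promoters of 250 bases are from RefSeq (GRCm38.p6); figures used matplotlib 3.10.9. Replicate 6 of the CD-HFD liver CXCR6pos group was not analysed here.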

Additional observations from a re-analysis of the deposited data

Results flagged for a closer look

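A single library stood apart from the rest of its group in 26 of 310 groups of 4 or 5 values examined for the named genes, meaning that its gap to the nearest other library was a larger part of the group's range than the critical value of Dixon's test allows. Chance alone gives this in about 1 in 20 groups. No gene passed in the test of the tissue difference between the diets, so no such difference is listed. Liver replicate 2 held 580.3 CPM of Dnajb1 (the others 329.7 to 368 CPM), 4756 CPM of Hbb-bs (the others 1726 to 1929 CPM), 20.01 CPM of Klra9 (the others 67.8 to 74.4 CPM) and 1141 CPM of Ppp1r15a (the others 734 to 768 CPM). Liver replicate 3 held 18.1 CPM of Aif1 (the others 4.95 to 7.08 CPM), 4.52 CPM of Dnase1l3 (the others no count) and 22.6 CPM of Iglc2 (the others 3.54 to 6.67 CPM). Liver replicate 4 held 61.8 CPM of Cd38 (the others 33.3 to 36.1 CPM), 51.9 CPM of Cox6a2 (the others 113 to 120.4 CPM), 39.6 CPM of Nfkb1 (the others 18.1 to 21.3 CPM) and 12.4 CPM of Prdm1 (the others 26.7 to 28.3 CPM). Spleen replicate 1 held 86.4 CPM of Pcna (the others 64.5 to 70 CPM) and 7.86 CPM of Rgs16 (the others 0 to 1.71 CPM). Spleen replicate 2 held 17.1 CPM of Dusp1 (the others 37.6 to 44.5 CPM) and 5.12 CPM of Dusp5 (the others 10.5 to 12.5 CPM). Spleen replicate 3 held 3.59 CPM of Lag3 (the others no count). Spleen replicate 4 held 3.07 CPM of Plaur (the others no count). Spleen replicate 5 held 6470.3 CPM of B2m (the others 5967 to 6070.3 CPM), 31.3 CPM of Cx3cr1 (the others 2.62 to 10.2 CPM), 138 CPM of Hsf1 (the others 44.5 to 64.5 CPM) and 458 CPM of Hspa5 (the others 344 to 369.8 CPM). It also held 445 CPM of Ighm (the others 664 to 683 CPM), 18.8 CPM of Jchain (the others 100.4 to 123 CPM), 68.97 CPM of Litaf (the others 7.17 to 21 CPM) and 257 CPM of Tcf7 (the others 357 to 381 CPM). It also held 163 CPM of Zfp36 (the others 115 to 128 CPM). Spleen replicate 5, the spleen library with the fewest counts (169106), accounts for 9 of these and liver replicate 2, the liver library with the fewest (165811), for 4.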

How the results depend on the processing

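On ND 292 genes were higher and 132 lower in liver. Keeping the identical library in the liver group gave 190 higher and 55 lower, keeping it in both groups 173 and 36, and keeping it in the spleen group 285 and 119. Leaving out 1 library at a time gave 230 to 293 higher and 87 to 149 lower, the lowest count of genes lower in liver being without liver replicate 5. DESeq2 gave 241 and 90, DESeq2 size factors 288 and 144 (median change of all genes -0.0126), no filter 291 and 116, a minimum of 10 counts in 4 libraries 295 and 117, the 2 groups alone 251 and 111, and leaving out the 2 shallowest of the 32 libraries, chosen after seeing the data, 304 and 141. Correlations of deviations between same-numbered liver and spleen libraries were 0.00327, -0.0136, 0.00423 and 0.0841. Of 4 liver libraries 1 correlated best with its own number (liver replicate 5). With so few libraries at this depth, these values cannot show whether same-numbered libraries came from the same mouse. A fit with the replicate number as a block (8 libraries) gave 207 higher and 80 lower, and the same libraries without a block 217 and 95. DESeq2 also called 321 of the 424 genes, and 217 were called in each of the 9 fits with 1 library left out. The test of the tissue difference between diets gave 0 genes, 1 with DESeq2 size factors in edgeR (Apoe), 4 without a filter (Apoe, Jun, Rab37 and Tnf), 2 with the identical library in the spleen group (Apoe and Rab37), 2 by DESeq2 (Apoe and Jun), and 0 to 5 with 1 library left out. The cause of these changes was not tested. Of 121 named genes called on ND, 76 were called under every setting that gave a value. The other 45 lost the call in at least 1 setting, and none of the 121 changed direction. Among the 155 named genes tested, the uncalled Cxcr6 (-0.23 to 0.604), Tox, Lef1, Relb and Cd8b1 changed sign between settings. DESeq2 did not call 8 of the 121: Cd38, Cd68, Id3, Iglc2, Itga1, Lat, Ly6d and Lyz2. At 165811 to 688547 counts per library, genes of a few CPM rest on few counts, and a missing call there does not show equal levels.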

Other observations

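A few genes outside the groups above also separated the organs, and they were chosen after their values were seen. Crem, a cyclic AMP-responsive modulator, was at 53.4, 22.6, 29.7 and 28.3 CPM in liver and 10.5, 3.41, 3.59, 12.3 and 6.27 CPM in spleen (1.97 ± 0.47, adjusted p = 0.00169). Cebpb, a transcription factor of the leucine-zipper class, was at 53.4, 31.6, 29.7 and 21.3 CPM in liver and 2.62, 5.12, 3.59, 9.21 and 6.27 CPM in spleen (2.38 ± 0.49, adjusted p = 0.000185). For both genes all liver libraries lay above all spleen libraries. Cdkn1a, the gene of the cell cycle inhibitor p21, was at 13.3, 22.6, 49.5 and 67.3 CPM in liver and 2.62, 5.12, 10.8, 3.07 and 6.27 CPM in spleen (3.02 ± 0.54, adjusted p = 3.43e-05). Plaur, the receptor of urokinase, had 27 counts over the liver libraries and 2 over the spleen libraries (ratio 26.3, 95% counting interval 6.6 to 228). Klf4, a zinc-finger factor, had 18 counts in liver and 0 in spleen, at least 11.7-fold higher with 3 counts over the group as the floor, and too few counts to enter the test.

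Among adhesion genes 2 of 17 tested (11.8%, against 4.73% of all tested genes) rose and none of the 17 fell. Itgal, the LFA-1 alpha chain that binds ICAM-1 on liver sinusoids, was at 240.1, 248, 284 and 347 CPM in liver and 202, 176, 176, 163 and 144 CPM in spleen (0.71 ± 0.15, adjusted p = 0.000213). The other was Itga1, whose call was lost without liver replicate 4 or 5 or spleen replicate 2 or 4. Of 8 GIMAP GTPase genes, which affect lymphocyte survival, 2 (25%) rose, among them Gimap5 (261 ± 34.4 CPM in liver, 185 ± 23 CPM in spleen, 0.52 ± 0.14, adjusted p = 0.0104). Neither of the 2 passed without liver replicate 4 (Gimap5 adjusted p = 0.118) or spleen replicate 2 (adjusted p = 0.0756) or with the identical library in both groups (adjusted p = 0.055).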
